A study of Homo sapiens with 6 samples.

Results

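Bone morphogenetic protein (BMP) ligands and the secreted antagonists that bind them were examined in PaTu8988t cells, an established human cell line of pancreatic ductal adenocarcinoma (PDAC). The genes were taken by symbol from the table of normalized counts: 10 of its 20347 symbols, namely the 6 ligands *BMP2*, *BMP4*, *BMP5*, *BMP6*, *BMP7* and *BMP8B* and the 4 antagonists *NOG*, *GREM1*, *CHRD* and *FST*. Poly(A) RNA was sequenced from 3 replicates of control cells and from 3 SAMD1 KO clones, which makes 6 libraries in all. SAMD1 is a CpG island-binding repressor, and it was deleted by CRISPR/Cas9 with guide RNAs delivered on a puromycin-selected vector. Control cells received the same vector with an unspecific guide. The KO replicates are clones derived from single cells, and nothing used here says whether the control replicates are clones, so loss of SAMD1 and the expansion of single cells cannot be told apart. The comparison asks which of these genes changed upon deletion of *SAMD1*.

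BMPs are secreted dimers of the TGF-beta family. They bind pairs of type I and type II serine/threonine kinase receptors, which phosphorylate SMAD1, SMAD5 and SMAD9. These enter the nucleus with the common partner SMAD4 and switch on genes such as those of the ID family. Noggin (*NOG*), gremlin (*GREM1*), chordin (*CHRD*) and follistatin (*FST*) bind ligands outside the cell and keep them from their receptors. In carcinoma cells, BMP signalling is known for its links to EMT, and *SMAD4* is often lost in PDAC.

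The libraries held from 35589477 to 45172216 reads, and the depths of the groups overlapped (35589477 to 41572022 in control and 41097091 to 45172216 in KO). *SAMD1* itself averaged 2304 ± 76.1 normalized counts in control cells and 926.9 ± 136 in the KO clones (SD, n = 3 each), with a log2 fold change of -1.32 (limma adjusted p = 0.000724). Of the 5 epithelial markers checked, 4 were above a mean of 10 normalized counts, and *KRT19* was listed at 0 in every library. Their summed level ran from 62680 to 65890 in control cells and from 67620 to 108600 in the KO clones. This marker sum moved with the group, and its part in the results was not tested. Most of the sum was *KRT8* and *KRT18*. *KRT18* averaged 29570 in control cells and 43000 in the clones and was called higher. *KRT8* averaged 34190 and 45100, but its groups overlapped and it was not called. *KRT7*, also called higher, averaged only 30.17 and 84.16. The summed markers of fibroblasts (5 genes, at most 54.98), endothelial cells (4 genes, at most 85.91) and leukocytes (4 genes, at most 34.18) were low in every library, with *DCN*, *LUM* and *CD3E* at 0. The low fibroblast sum was also apart between the groups, at 52.83 to 54.98 in control cells and 17.99 to 44.93 in the clones. Its part in the results was not tested either. The endothelial and leukocyte sums overlapped between the groups.

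Of the 10 genes, 7 were tested because their normalized count averaged 10 or more across the 6 libraries, and *BMP5*, *GREM1* and *FST* were not. Calls followed the cut-off of the study, here with limma: the log2 fold change had to exceed 0.5 in either direction with p below 0.01 before adjustment. Adjusted p-values (Benjamini-Hochberg) cover all 12773 genes tested. *BMP2*, *BMP7* and *NOG* rose in SAMD1 KO cells, *BMP4*, *BMP6*, *BMP8B* and *CHRD* did not pass, and 0 were lower (0 in edgeR and in DESeq2 as well, and 0 lower at an unadjusted p below 0.05 in limma). Against these 3 of 7, 5.77% of all tested genes were called higher and 2.08% lower. The 10 genes were chosen with earlier results of these data known, so these shares are no test of the set. All 7 had a positive log2 fold change, with a median of 0.87, where the median of all tested genes was -0.0059. In 6 of the 7 every KO clone lay above every control replicate, as in 19.2% of all tested genes, and the exception was *CHRD*.

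**Figure D1:**
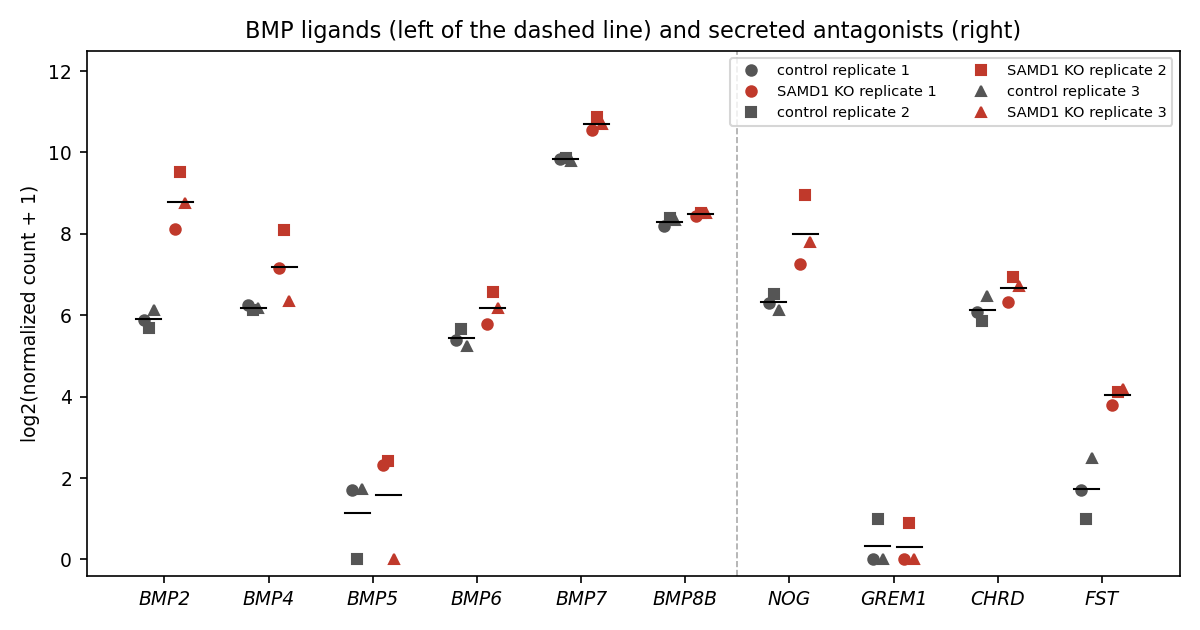
Level of each BMP ligand and antagonist in each library, as log2(normalized count + 1), with grey symbols for control replicates, red symbols for SAMD1 KO clones (circle 1, square 2, triangle 3) and a line at each group mean of 3. The red symbols of *BMP2*, *BMP7* and *NOG* lie clear of the grey ones, while *GREM1* stays at 0 or 1 read in every library.

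Among the ligands, *BMP2*, an inducer of bone formation and of heart and mesoderm development, changed most. Its gene lies on chromosome 20 (6767686 to 6780246, GRCh38, plus strand). It had 58.34, 50.88 and 68.73 normalized counts in the control replicates, against 274.9, 735.2 and 429.0 in KO clones 1 to 3. Every clone was thus above every control replicate, and the clones were spread more widely than the controls. The group means of 59.31 ± 8.97 and 479.7 ± 234 (SD, n = 3 each) differ 8.09-fold, with a log2 fold change of 2.89 (95% interval 2.11 to 3.67, limma adjusted p = 0.00273), the 12th largest rise among the 737 genes called higher. These values rest on 163 reads over the control libraries and 1606 over the KO libraries. The 40 tested genes nearest to *BMP2* differed from control by a median of 0.34, 0.26 and -0.10 on the log2 scale in clones 1 to 3, and with these subtracted its log2 fold change was 2.72 (limma adjusted p = 0.00206). No value here separates a change of RNA per cell from a change in the share of cells that express a gene, in *BMP2* or in any other gene of bulk RNA.

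*BMP7*, a ligand of kidney and skeletal development, lies on the other arm of the same chromosome (57168753 to 57266641, minus strand). It had 917.4, 931.5 and 885.4 normalized counts in the control replicates, against 1507, 1863 and 1660 in the KO clones. The groups stood well apart, and the clones lay closer to each other than for *BMP2*. The rise was 1.84-fold, from 911.4 ± 23.6 to 1677 ± 178 (SD, n = 3 each), or a log2 fold change of 0.87 (95% interval 0.67 to 1.08, limma adjusted p = 0.00157). The median log2 difference of its 40 nearest tested genes was between -0.053 and 0.0075 in the clones.

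*BMP4* is the closest relative of *BMP2* and acts in mesoderm and epithelial patterning. On chromosome 14 (53949736 to 53958761, minus strand), it had 75.49, 69.47 and 71.02 normalized counts in the control replicates, against 142.4, 270.4 and 80.05 in the KO clones. Clone 2 was far above the controls, clone 1 was between, and clone 3 was barely higher than the highest control replicate. The log2 fold change of 1.01 had a 95% interval of 0.084 to 1.93 and did not pass (unadjusted p = 0.0363, limma adjusted p = 0.139). Without clone 3 it was 1.44 and passed (limma adjusted p = 0.0195), and without clone 2 it was 0.56 and did not (limma adjusted p = 0.20). DESeq2 on all 6 libraries called it.

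*BMP6*, which signals iron status from the liver vasculature to hepatocytes, lies on chromosome 6 (7726099 to 7881728, plus strand). It had 41.18, 49.90 and 36.66 normalized counts in control cells and 54.39, 93.31 and 71.06 in the KO clones. The groups did not overlap, with clone 1 only just above the highest control replicate, and the log2 fold change of 0.74 (95% interval 0.16 to 1.32) missed the cut-off (limma adjusted p = 0.0935). It was called without clone 1, at 0.93 (limma adjusted p = 0.0332), and was 0.55 without clone 2 (limma adjusted p = 0.175). *BMP8B*, known from germ cell development and from brown fat (chromosome 1, 39757182 to 39788865, minus strand), had 289.4, 334.6 and 320.7 normalized counts in control cells and 345.1, 362.0 and 362.5 in the KO clones. Here the difference was small, at 0.18 on the log2 scale (95% interval -0.048 to 0.41, limma adjusted p = 0.262). *BMP8B* has a near-identical copy on chromosome 1, *BMP8A* (26.63 ± 4.27 and 21.07 ± 6.62 normalized counts, SD, n = 3 each), so reads could be split between the copies. *BMP5*, a ligand of skeletal development (chromosome 6, 55753653 to 55875590, minus strand), had 4 reads over the control libraries and 9 over the KO libraries, with 0 reads in control replicate 2 and in clone 3.

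Among the antagonists, *NOG* was the only one of the 2 tested that was called. Noggin binds BMP2, BMP4 and BMP7 with high affinity and blocks both of their receptor surfaces. Its gene, a single exon on chromosome 17 (56593699 to 56595611, plus strand), had 77.78, 90.99 and 68.73 normalized counts in the control replicates, against 151.3, 499.4 and 223.1 in the KO clones. All clones were higher than all controls, with clone 2 far above the other two. The mean rose 3.68-fold, from 79.17 ± 11.2 to 291.2 ± 184 (SD, n = 3 each), or a log2 fold change of 1.69 (95% interval 0.76 to 2.63, limma adjusted p = 0.035). The call was lost when control replicate 1 or control replicate 3 was left out, although the direction was kept, with log2 fold changes between 1.21 and 2.07 over the 6 fits that each left out 1 library and limma adjusted p between 0.00974 and 0.135.

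*CHRD*, which binds BMPs and is cut by the BMP1 and tolloid proteases (chromosome 3, 184380054 to 184390736, plus strand), had 66.34, 56.75 and 88.20 normalized counts in control cells and 79.11, 121.0 and 104.3 in the KO clones. Control replicate 3 lay above clone 1, so the groups overlapped, and the log2 fold change of 0.52 (95% interval -0.022 to 1.07) did not pass (limma adjusted p = 0.184). *FST*, whose protein binds activins tightly and some BMPs (chromosome 5, 53480626 to 53487134, plus strand), was just under the count minimum, with a mean of 9.035 normalized counts. It had 2, 1 and 4 reads in the control replicates and 13, 19 and 19 reads in the KO clones, so each clone had more reads than any control library. The ratio of the means was 5.91 (2.616 ± 1.82 and 15.45 ± 2.28 normalized counts, SD, n = 3 each). In a fit with no count minimum (16476 genes) it had a log2 fold change of 2.30 with a standard error of 0.43 (limma adjusted p = 0.0158). *FST* came near the count minimum only through the KO libraries, so this value is no support for a change of the set. *GREM1*, an antagonist made mostly by stromal cells (chromosome 15, 32718004 to 32745106, plus strand), had 1 read over the 3 control libraries and 1 read over the 3 KO libraries, and no difference was detectable at this depth.

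**Figure D2:**
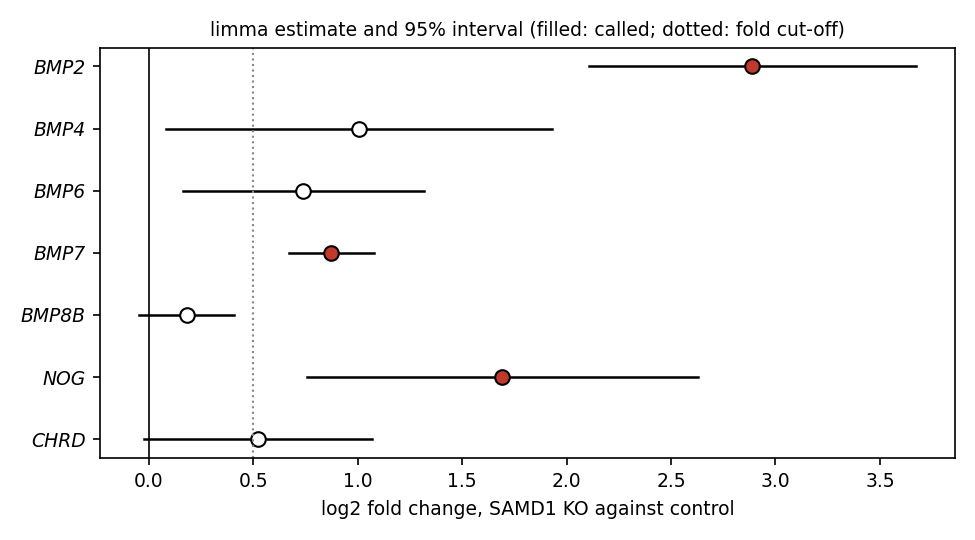
Log2 fold change between SAMD1 KO and control cells for the 7 tested BMP ligands and antagonists (limma, 3 libraries a group), with bars for the 95% interval, filled points for called genes and a dotted line at the fold cut-off of 0.5. The intervals of *BMP2* (2.11 to 3.67), *NOG* (0.76 to 2.63) and *BMP7* (0.67 to 1.08) lie above the dotted line, and those of *BMP8B* and *CHRD* include 0.

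The SAMD1 KO clones differed from each other in these genes. Clone 2 had the highest level of the 3 clones in 6 of the 7 tested genes (all but *BMP8B*, where clone 3 was higher by less than 1 normalized count), as in 32.9% of all tested genes. For *BMP2*, the log2 difference from the control mean was 2.20 in clone 1, 3.62 in clone 2 and 2.84 in clone 3. The same differences were 0.94, 2.65 and 1.49 for *NOG*, and 0.98, 1.90 and 0.15 for *BMP4*. Clone 3 was above clone 1 for *BMP2* and *NOG* but below it for *BMP4*. The SD of the log2 level among the clones was 0.709 for *BMP2*, 0.872 for *BMP4* and 0.875 for *NOG*, larger than for 96%, 97.8% and 97.8% of all tested genes. For *BMP7* it was 0.153, near the middle (50.5% of genes had a smaller SD), and for *BMP8B* 0.0403 (7.11%).

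**Figure D3:**
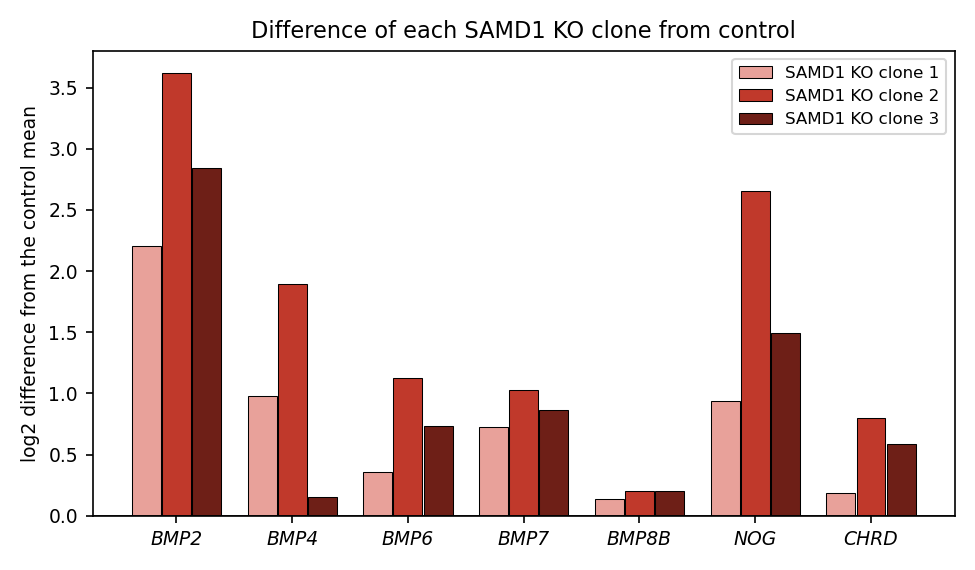
Bars from 0 give the log2 difference of each SAMD1 KO clone from the mean of the 3 control replicates for the 7 tested BMP ligands and antagonists, light to dark for clones 1 to 3. Clone 2 is highest in 6 of the 7 genes, and *BMP4* ranges from 0.15 in clone 3 to 1.90 in clone 2, while the bars of *BMP7* lie between 0.73 and 1.03.

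To compare levels between genes, normalized counts were divided by the length of all annotated exons of each gene in GENCODE 44. On this scale, *BMP7* was the most abundant ligand in control cells, with a mean of 168 normalized counts per kb, followed by *BMP8B* (65.3), *BMP4* (23.3), *BMP2* (16.7) and *BMP6* (11.3). Among the 4 antagonists, *NOG* was the most abundant at 41.4 per kb, ahead of *CHRD* (10.6) and *FST* (0.951). Libraries of neighbours in this joint order did not overlap in control cells, except those of *BMP6* and *CHRD* and, at the bottom, those of *FST*, *BMP5* (0.384) and *GREM1* (0.0221). In the KO clones the order was *BMP7* (309), *NOG* (152), *BMP2* (135), *BMP8B* (73.9), *BMP4* (53.1), *BMP6* (19.3) and *CHRD* (15.3), so the level of *BMP2* passed those of *BMP4* and *BMP8B* in each clone. The levels of *NOG* and *BMP2* overlapped there, as did those of *BMP8B* and *BMP4* and those of *BMP6* and *CHRD*.

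Summed over the 6 ligands, the level was 281, 291 and 282 normalized counts per kb in the control replicates, against 488, 739 and 547 in the KO clones. *BMP7* made up 57.8% to 60.1% of this sum in control cells and 46.5% to 56.9% in the clones. The share of *BMP2* was 4.93% to 6.87% in control cells and 15.9%, 28.1% and 22.1% in clones 1 to 3. Antagonist levels summed to 51.5, 56.5 and 50.9 per kb in control cells and to 95.7, 285 and 139 in the clones, with *NOG* giving at least 70.6% in each library. Ligand level per level of the 4 antagonists was 5.47, 5.15 and 5.55 in the control replicates, against 5.1, 2.59 and 3.95 in the clones. It was lower in each clone than in any control library and lowest in clone 2. *CHRDL1*, a BMP antagonist outside these 4, had 82.9, 87.6 and 89.4 per kb in control cells and 12.9, 64.4 and 154 in the clones. *NBL1*, a secreted or matrix BMP regulator also outside them, averaged 410 per kb in control cells and 472 in the clones. Higher still among such regulators were *CRIM1* (means of 5650 per kb in control cells and 4360 in the clones), *FSTL1* (2210 and 1600) and *TWSG1* (1370 and 1330). None of these genes is in the ratios, which hold for the 10 genes only. These ratios describe RNA per length only, and with 3 libraries a group the smallest p of an exact permutation test is 0.1.

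SAMD1 is known to bind unmethylated CpG islands through a GCGC motif. Promoters of 7 of the 10 genes were matched in the RefSeq table (GRCh38.p14), namely those of *BMP4*, *BMP5*, *BMP6*, *BMP8B*, *GREM1*, *CHRD* and *FST*; *BMP2*, *BMP7* and *NOG* had no entry. The letters GCGC, which read the same on both strands, were counted in the 250 bases before each start, with overlapping matches counted separately, and 53.4% of 35116 promoters held them. None of the 3 called genes had a promoter here, so the matches were not set against the calls. The 4 genes printed below are those of the 7 in which every KO clone lay above every control replicate, as in 19.2% of all tested genes. *BMP5*, *GREM1* and *CHRD*, whose groups overlapped, are not printed, so the printed windows cannot link the motif to a rise. Sequences are shown for *FST* and *BMP6*, for *BMP4*, which varied most among the clones of these 4, and for *BMP8B*, which changed least. Each is printed 5′ to 3′ on the strand of its gene, with GCGC in capitals.
*FST* promoter, chr5:53480379-53480628, plus strand: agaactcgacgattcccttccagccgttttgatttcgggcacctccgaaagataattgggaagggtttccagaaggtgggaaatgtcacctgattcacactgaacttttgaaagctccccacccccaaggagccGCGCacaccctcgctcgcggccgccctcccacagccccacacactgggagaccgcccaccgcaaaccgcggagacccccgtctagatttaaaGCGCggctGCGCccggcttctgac
*BMP6* promoter, chr6:7725849-7726098, plus strand: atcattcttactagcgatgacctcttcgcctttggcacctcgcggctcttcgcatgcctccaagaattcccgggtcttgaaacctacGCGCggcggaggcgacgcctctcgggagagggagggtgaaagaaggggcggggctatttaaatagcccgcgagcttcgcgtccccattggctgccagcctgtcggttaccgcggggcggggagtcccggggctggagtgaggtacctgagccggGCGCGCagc
*BMP4* promoter, chr14:53955051-53955300, minus strand: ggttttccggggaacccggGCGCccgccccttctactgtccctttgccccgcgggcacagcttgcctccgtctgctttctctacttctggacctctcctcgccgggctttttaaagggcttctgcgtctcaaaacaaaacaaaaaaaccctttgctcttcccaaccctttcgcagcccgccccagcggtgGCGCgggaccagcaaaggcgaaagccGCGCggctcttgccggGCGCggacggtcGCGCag
*BMP8B* promoter, chr1:39788866-39789115, minus strand: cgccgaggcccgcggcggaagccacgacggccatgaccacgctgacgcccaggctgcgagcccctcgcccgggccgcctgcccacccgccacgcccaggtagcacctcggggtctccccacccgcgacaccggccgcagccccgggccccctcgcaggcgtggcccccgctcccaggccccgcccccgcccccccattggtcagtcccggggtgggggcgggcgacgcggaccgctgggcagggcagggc

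The *FST* and *BMP6* windows each held 3 matches, a number reached by 29.5% of all promoters. *BMP4* has 3 annotated starts in RefSeq, with 5, 4 and 5 matches, and the window printed lies inside the gene as annotated in GENCODE 44, outside its exons. Its start is 1775 bases from that of the canonical *BMP4* transcript in GENCODE 44, and the other starts are farther. The window before the canonical *BMP4* start was therefore not examined, unlike those of *FST*, *BMP6* and *BMP8B*. In *BMP8B* there were 0 matches although the window had 32 CpG dinucleotides, against a median of 11 over all promoters. The 2 windows of *GREM1*, which had 1 read in each group, held 6 and 4 matches, that of *CHRD* held 2 and that of *BMP5* held 0. Binding of SAMD1 was not analysed here.

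The rest of the pathway was followed with 7 lists of 87 other genes, of which 52 were tested. SAMD1 KO cells had 9 of these called higher and 1 lower, against 5.77% and 2.08% of all tested genes. The lists, too, were chosen with earlier results of these data known. The 9 include *INHBB*, which passed the count minimum only through the KO libraries, and *GDF15*, *BMPR1B* and *MSX2*, whose calls depended on single libraries. The median log2 fold change of the 52 was 0.15. Among other ligands of the BMP and GDF family, 2 of 4 tested genes rose and 0 fell. *GDF7*, a ligand known from the roof plate of the spinal cord, went from 91.51, 112.5 and 100.8 normalized counts in the control replicates to 266.0, 255.7 and 270.7 in the clones (log2 fold change 1.37, limma adjusted p = 0.00115). Its clones were nearly equal, unlike those of *BMP2*. *GDF15*, a stress-induced member of the wider family, was called at a log2 fold change of 1.02 (limma adjusted p = 0.0633) and lost the call in 8 of 16 alternative settings, among them the removal of any control replicate. Of the 9 tested secreted or matrix regulators, 1 rose, and the median was -0.040. This was *LTBP1*, a matrix protein that holds latent TGF-beta rather than BMPs, with 503.1 ± 9.18 normalized counts in control cells and 1620 ± 199 in the clones (SD, n = 3 each, limma adjusted p = 0.000278). In *FSTL1* and *CRIM1* every clone lay below every control replicate. Their log2 fold changes of -0.46 and -0.38 passed the p but not the fold (limma adjusted p = 0.00161 and 0.0281).

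Follistatin's main ligands are the activins, and 3 genes of that list were tested. *INHBB*, which encodes the subunit of activin B, had 4.575, 1.957 and 5.727 normalized counts in the control replicates, against 26.70, 57.88 and 34.18 in the clones. Every clone was above every control replicate, but the control libraries alone would not have reached the count minimum, so its call is no support for a change of the list. *INHBA*, which encodes the subunit of activin A, had at most 1.799 normalized counts in any library. In the list of processing proteases 0 of 6 tested genes were called (4 at an unadjusted p below 0.05 in limma, 1 called in edgeR and 0 in DESeq2). Of these, *PCSK6*, a proprotein convertase, passed the p but not the fold, at 0.40 (limma adjusted p = 0.0113), and *TLL2*, a tolloid protease that can cut chordin, missed the p at a log2 fold change of 1.06 (limma adjusted p = 0.0646); edgeR called *TLL2*.

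Of 12 tested type I and type II receptors and co-receptors, 1 was called, and the median was 0.17. *BMPR1B*, a type I receptor, was low, with 12.58, 15.65 and 19.47 normalized counts in control cells and 23.73, 50.11 and 65.66 in the clones. Its log2 fold change of 1.40 (limma adjusted p = 0.0611) lost the call without any one of the control replicates and without clone 2 or clone 3. *ACVR1*, another type I receptor, had 1002, 924.6 and 984.0 normalized counts in control cells and 1170, 1075 and 1327 in the clones, without overlap, and its log2 fold change of 0.29 (95% interval 0.077 to 0.50, limma adjusted p = 0.0808) was not called. The type I receptor *BMPR1A* had 1098, 958.9 and 1116 normalized counts in control cells and 1040, 1138 and 1055 in the clones, with a log2 fold change of 0.029 (95% interval -0.17 to 0.22). Of the 12, 4 had every clone above every control replicate and 2 had every clone below (2449 and 2374 of all 12773 tested genes). One of those below was *TGFBR3*, whose log2 fold change of -0.36 passed the p but not the fold (limma adjusted p = 0.0558). Among 9 tested SMADs and regulators, 1 rose: *SMAD9*, a receptor-activated SMAD, which went from 179.4 ± 25.4 up to 323.2 ± 29.0 normalized counts (SD, n = 3 per group; log2 fold change 0.85, limma adjusted p = 0.0103). Of these 9, 3 had every clone above every control replicate and 1, *SMURF2*, had every clone below. The log2 fold change of *SMURF2*, -0.36, passed the p but not the fold (limma adjusted p = 0.0122). *SMAD4*, the common partner of the receptor-activated SMADs, had 1 read in control replicate 2 and 0 reads in each of the other 5 libraries, so these cells held almost no counted *SMAD4* transcript in either group.

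Of 12 tested genes in a list of BMP targets, 4 were called higher and 1 lower, with a median of 0.66. *HEY1*, a transcriptional repressor that Notch signalling also induces, had 38.89, 55.77 and 42.38 normalized counts in the control replicates, against 210.6, 232.4 and 357.1 in the clones (log2 fold change 2.50, limma adjusted p = 0.00137). *RUNX2*, the master regulator of bone formation, rose from 211.5 ± 32.0 to 584.1 ± 195 (SD, n = 3 each, limma adjusted p = 0.00912), and *SMAD9* stood in this list too. *MSX1*, a homeobox gene, fell from 2166 ± 180 normalized counts in control cells to 1325 ± 221 in the clones (SD, n = 3 each; log2 fold change -0.72, limma adjusted p = 0.0113). Its paralog *MSX2*, outside the naming rule and chosen after its values were seen, rose by 0.78 on the log2 scale (limma adjusted p = 0.0433) and lost the call without any one of the control replicates and without clone 1.

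The ID genes, which encode inhibitors of basic helix-loop-helix factors and are common readouts of BMP signalling, were not called. *ID1* had 85.79, 94.91 and 98.51 normalized counts in control cells and 119.6, 130.5 and 72.86 in the clones. Clone 3 was below every control replicate and the other clones above them, and the log2 fold change was 0.17 (95% interval -0.38 to 0.72, limma adjusted p = 0.678). *ID2* had 44.61, 48.92 and 43.53 against 33.62, 70.84 and 52.17 normalized counts, with a log2 fold change of 0.13 (limma adjusted p = 0.801) that turned to -0.12 without clone 2. *ID3* had only 8.007, 3.914 and 14.89 normalized counts in control cells and 20.77, 19.87 and 17.09 in the clones, a log2 fold change of 1.18 (limma adjusted p = 0.132). *ID3* averaged under 10 in control cells and entered the test only through the KO libraries. Its log2 fold change was 1.60 without control replicate 3, where it was called (limma adjusted p = 0.0971), 0.75 without control replicate 2 (limma adjusted p = 0.312) and 0.67 with a pseudocount of 10.

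**Figure D4:**
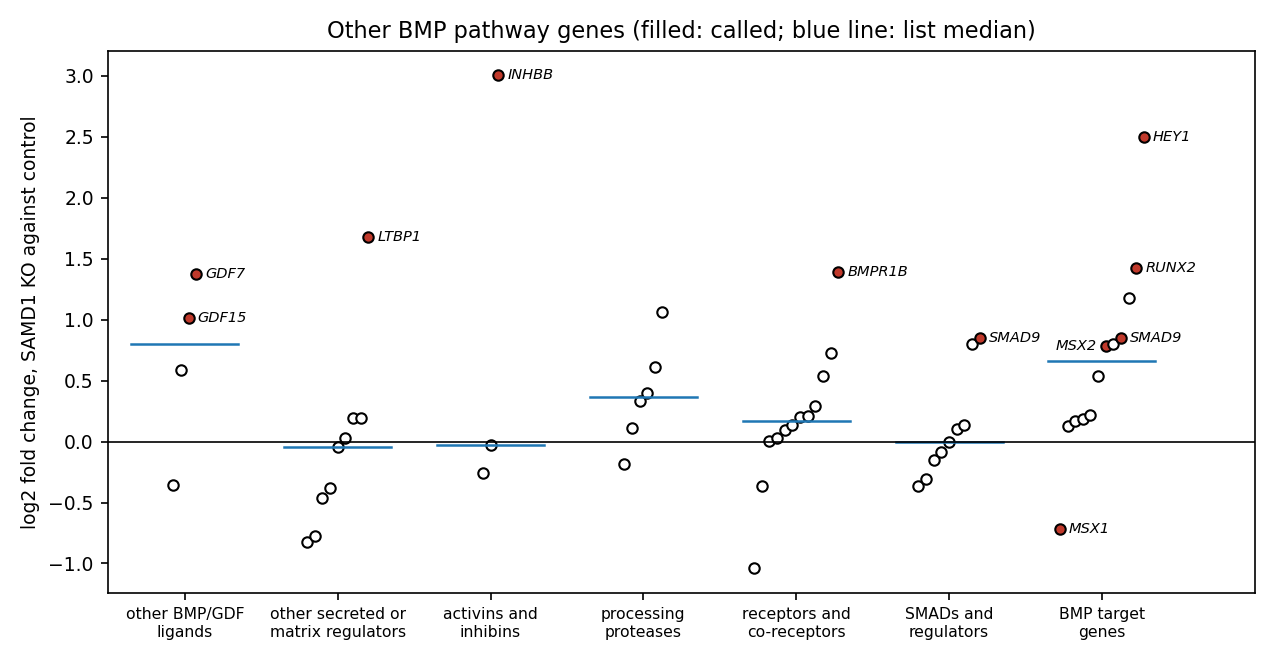
Log2 fold change between SAMD1 KO and control cells for each tested gene in 7 lists of other BMP pathway genes, with filled points and names for called genes and a blue line at each list median; genes in 2 lists are drawn in both. The receptor and SMAD lists have medians of 0.17 and -0.0006, and the target list has 4 filled points above 0 and 1 below.

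The genes whose level followed *BMP2*, *BMP4* or *BMP7* most closely were sought by Pearson's r of log2 values over the 6 libraries, among 11452 genes with a mean of at least 50 normalized counts. For *BMP2* these were *GSTO2* (r = 0.998), *ULK4* (0.997) and *H2AW* (0.997), and for *BMP7* *PHLDA1*, *HOXB4* and *SRGAP1* (each 0.998). In all 6 of these genes the groups stood apart, which the choice by likeness to *BMP2* and *BMP7*, themselves apart, largely fixed in advance. The changes of these genes were smaller than that of *BMP2*, with log2 fold changes from 0.42 for *GSTO2* to 1.46 for *HOXB4*. *BMP4* was followed by *ZNF445* (0.998), *SLC2A3* (0.996) and *CSPG5* (0.994), which shared its order of clones. *SLC2A3*, which encodes the glucose transporter GLUT3, had 115.7, 303.2 and 34.18 normalized counts in clones 1 to 3 and 25.44 to 26.35 in control cells. With 6 libraries and 11452 genes compared, such values are a description of these libraries only.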

How the data were processed

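RNA was sequenced from 3 control and 3 SAMD1 KO libraries of PaTu8988t cells. Reads were aligned by the authors with RNA-STAR to a GenCode transcriptome, and the submitters' processing notes name featureCounts, DESeq2 and hg38. The strand setting of the counting is not given in the sources used here. The deposited signal is a read count per gene divided by 1 size factor per library; 100% of the values of each library were whole multiples (within 0.01 of a read) of the value of 1 read, so reads were recovered. The authors' own comparison (fold changes, standard errors and p-values) was not used.

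limma 3.58.1 (lmFit, eBayes with trend) in R 4.3.3 was run, two-sided, on log2(normalized count + 1) for 12773 genes with a mean of at least 10; fold changes are on this scale, which understates those of low genes. Alternatives were pseudocounts of 0.1 and 10, no count minimum or 50, rescaling by the 75th percentile, a replicate block, leaving out each library, edgeR 4.0.16 and DESeq2 1.42.0 on recovered reads, calls by adjusted p, and subtraction of the median of 40 neighbouring genes. The fits were tested on simulated data. Positions are from GENCODE 44 on GRCh38, with 19533 of 20347 symbols matched. Besides all 10 genes and *SAMD1*, the text names up to 4 called genes of each list, smallest p first, *ID1* to *ID3*, and the 3 genes closest in pattern to *BMP2*, *BMP4* and *BMP7*. *BMP8A*, *BMPR1A*, *ACVR1*, *TGFBR3*, *SMAD4*, *SMURF2*, *INHBA*, *MSX2*, *TLL2*, *PCSK6*, *CHRDL1*, *ENG*, *NBL1*, *FSTL1*, *CRIM1*, *TWSG1* and *KRT8* were named after their values were seen. The genes and lists were chosen with earlier results of these data known. The limma p-values set the difference of the group means against the spread within the groups of these 6 libraries. That spread is pooled over control replicates and KO clones and moderated over all tested genes. Pooling takes both groups to be equally spread, which was not so for genes such as *BMP4*. Python 3.11.15 and SciPy 1.17.1 were used for the rest.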

Additional observations from a re-analysis of the deposited data

How the results depend on the processing

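Of the tested BMP genes, *BMP2* and *BMP7* were called higher in all 16 alternatives, with log2 fold changes of 2.52 to 3.23 and 0.80 to 0.95, and *BMP8B* and *CHRD* in none. *NOG* lost its call in 2 alternatives, without control replicate 1 and without control replicate 3. *BMP4* gained a call without clone 3 and in DESeq2, and *BMP6* without clone 1. Without clone 2 their log2 fold changes were 0.56 and 0.55, uncalled, against 1.01 and 0.74 with all libraries. The number called higher was between 2 and 4 over the 6 fits that left out 1 library, 3 in edgeR and 4 in DESeq2. It was 4 with no count minimum, where *FST* was added, with 7 reads over the control libraries and 51 over the KO libraries. For all genes, 568 to 862 were called higher and 180 to 370 lower when 1 library was left out, against 737 and 266 with all 6. Deviations of same-numbered control and KO libraries correlated weakly (r = 0.0391, 0.134 and 0.0318), and not every pair was over 0.1, so the libraries were not treated as paired. Each KO library correlated best with its own number, but control replicate 3 did so with KO clone 1 (r = 0.036). With the replicate block 3 of the genes were called higher, 0 lower, and 11 in the other lists against 10 without the block. The log2 fold change of *ID2* turned negative, to -0.12, without clone 2, and was 0.41 without clone 1, its range when 1 library was left out. The causes were not tested. Depth limits *BMP5*, *GREM1* and *FST*, which had at most 51 reads over the 3 libraries of a group.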

Other observations

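A pair of pathway regulators, chosen after their values were seen, differed widely among the SAMD1 KO clones, and neither was called. *CHRDL1*, a chordin-like BMP antagonist, had 324.9, 343.4 and 350.5 normalized counts in the control replicates but 50.43, 252.3 and 605.3 in clones 1 to 3. Clone 1 was thus far below the controls and clone 3 above them, and the SD of its log2 level among the clones (1.80) was larger than for 99.7% of tested genes. *ENG*, which encodes the co-receptor endoglin, had 177.3, 188.8 and 171.8 normalized counts in control cells and 150.3, 44.93 and 96.24 in the clones. All clones were lower than all controls, with a log2 fold change of -1.04 that missed the cut-off (limma adjusted p = 0.128). Clone 2, the highest clone for *BMP2*, *BMP4* and *NOG*, was the lowest for *ENG*.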
